A study of Mus musculus with 18 samples.

Results

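In 768 of 16429 promoter windows, the central amygdala (CeA) was lower than the cortex in somatostatin-positive (SOM+) nuclei and higher than the cortex in bulk nuclei. Accessibility was measured by ATAC-seq, in which the Tn5 transposase cuts open DNA and leaves sequencing adapters in it. A window holds the reads within 1 kb to either side of an annotated transcription start site (mouse build mm9), and its level is given in CPM, the count scaled to a library total of 1000000. The 768 windows were chosen on their measured values: among windows of mean CPM of at least 10 over the 18 libraries, the difference of mean log2(CPM + 1), CeA minus cortex and with the median over these windows set to 0, was at most -0.4 in SOM+ nuclei and at least 0.4 in bulk nuclei. They make up 4.67% of the 16429 windows, and 742 windows (4.52%) showed the opposite pattern, high in the CeA in SOM+ nuclei and low in bulk nuclei.

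All mice were C57BL/6J of 2 to 3 months. SOM+ nuclei carried a nuclear GFP (SOM-H2B-GFP line) and were gated on it. They came from fear-conditioned and control mice, labelled WT in genotype, with 2 libraries for each of CeA fear-conditioned, CeA control, cortex fear-conditioned and cortex control. Bulk nuclei were gated on the DNA stain NucBlue alone, so neurons and glia of all types could enter. In each region, 3 libraries, all labelled male, came from mice whose SOM+ cells lack Erbb4 (Erbb4 KO), and 2 libraries, 1 of each sex, came from wild-type (WT) mice. SOM+ cells are a minority of bulk nuclei, so most KO nuclei keep the gene, and the sources used here name no driver line for the deletion. The genotype entry of the WT libraries also reads KO, so WT was taken from the titles. In SOM+ nuclei replicate 1 was labelled male and replicate 2 female. The cortical tissue was prefrontal. Each library held 50000 nuclei, and the sorting protocol speaks of technical replicates, so p-values measure the spread between libraries that may not all be separate mice. The sort, the mouse line and the preparation all differ between SOM+ and bulk nuclei and cannot be told apart.

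An accessible promoter is a stretch around a start site that is kept free of packed nucleosomes, and most promoters rich in CpG are open in nearly all cell types, whether the gene is strongly transcribed or not. Genes are spread unevenly over the chromosomes, and gene-dense regions tend to be GC-rich, early replicating and in the open compartment of the nucleus. Somatostatin cells of the cortex are interneurons born in the medial ganglionic eminence, whereas somatostatin cells of the CeA are GABAergic projection and local neurons that resemble those of the striatum. Bulk cortex is mostly glutamatergic neurons and glia, and bulk CeA is mostly GABAergic neurons and glia.

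The promoters of 5 genes on which the results turn are shown first, from 250 bases before to 50 after the annotated start site (RefSeq, GRCm38.p6, 5′ to 3′ on the gene's strand). Sox1, Sox2 and Dlx2 stood apart from their neighbours, and Actg1 and Baiap2 lie at the member-rich end of chromosome 11. Capitals mark the GC box searched for, GGGGCGGGG on either strand, the binding sequence of SP and KLF factors. It was found at 1 place in Sox1, at 2 in Sox2, at 1 in Baiap2 and at 0 in Dlx2 and Actg1.
Sox1 (chr8:12395269-12395568, + strand): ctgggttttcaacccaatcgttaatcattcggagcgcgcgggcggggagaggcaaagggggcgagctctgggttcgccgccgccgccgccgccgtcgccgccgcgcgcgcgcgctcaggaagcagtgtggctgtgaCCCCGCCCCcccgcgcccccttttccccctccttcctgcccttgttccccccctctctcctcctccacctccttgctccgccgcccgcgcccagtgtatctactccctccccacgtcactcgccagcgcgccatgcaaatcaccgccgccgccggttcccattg
Sox2 (chr3:34649745-34650044, + strand): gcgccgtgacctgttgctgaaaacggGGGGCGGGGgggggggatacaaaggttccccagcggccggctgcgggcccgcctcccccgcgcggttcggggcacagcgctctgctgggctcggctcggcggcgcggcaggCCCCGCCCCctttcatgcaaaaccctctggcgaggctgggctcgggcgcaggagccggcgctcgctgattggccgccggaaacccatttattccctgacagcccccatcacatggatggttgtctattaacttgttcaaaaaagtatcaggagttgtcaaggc
Dlx2 (chr2:71546705-71547004, - strand): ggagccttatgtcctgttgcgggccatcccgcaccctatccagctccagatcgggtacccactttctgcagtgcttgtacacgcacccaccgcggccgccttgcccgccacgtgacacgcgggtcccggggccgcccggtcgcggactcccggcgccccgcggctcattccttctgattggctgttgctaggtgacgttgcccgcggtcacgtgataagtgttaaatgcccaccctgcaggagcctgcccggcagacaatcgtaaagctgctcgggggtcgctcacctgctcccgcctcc
Actg1 (chr11:120348446-120348745, - strand): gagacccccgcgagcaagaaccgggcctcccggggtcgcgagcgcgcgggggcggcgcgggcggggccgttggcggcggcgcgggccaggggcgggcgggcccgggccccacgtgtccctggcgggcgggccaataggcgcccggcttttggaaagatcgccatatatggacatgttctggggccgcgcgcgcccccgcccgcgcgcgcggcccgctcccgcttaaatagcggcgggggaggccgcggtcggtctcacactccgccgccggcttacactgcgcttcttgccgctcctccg
Baiap2 (chr11:119942842-119943141, + strand): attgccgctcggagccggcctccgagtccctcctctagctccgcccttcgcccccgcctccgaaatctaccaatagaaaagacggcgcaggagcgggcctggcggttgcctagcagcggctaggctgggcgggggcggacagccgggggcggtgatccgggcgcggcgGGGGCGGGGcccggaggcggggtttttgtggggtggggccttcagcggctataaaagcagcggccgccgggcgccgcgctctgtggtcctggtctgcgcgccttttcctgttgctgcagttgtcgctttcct
These 5 promoters had a GC content of 70.7% (Sox1), 66.3% (Sox2), 66.3% (Dlx2), 77.3% (Actg1) and 70.3% (Baiap2).

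The libraries held 2648959 to 7727263 promoter counts in CeA SOM+, 9452310 to 14668694 in cortex SOM+, 2751769 to 7220446 in CeA bulk and 5146020 to 7939962 in cortex bulk nuclei. No member window was at 0 in any library, and the lowest count of a member was 12. The labelled nuclei were checked on marker promoters. Cort and Lhx6, which mark cortical somatostatin and medial ganglionic eminence cells, stood at 74.2 to 86.2 and 76.4 to 89.9 CPM in cortex SOM+ nuclei, against 8.55 to 14.7 and 12.0 to 28.4 CPM in cortex bulk nuclei. In CeA SOM+ nuclei both overlapped CeA bulk nuclei, with Cort at 12.1 to 14.4 against 7.88 to 18.7 CPM and Lhx6 at 18.9 to 26.6 against 15.9 to 37.9 CPM. The Sst window itself did not separate the sorts: it had 11.9 to 26.8 CPM in CeA SOM+ and 13.4 to 26.0 CPM in CeA bulk nuclei, and 12.7 to 15.7 CPM in cortex SOM+ and 8.19 to 17.1 CPM in cortex bulk nuclei. Penk, a peptide gene of CeA and striatal neurons, stood at 40.7 to 50.1 CPM in CeA SOM+ nuclei and at 4.44 to 9.0 CPM in cortex SOM+ nuclei, but was higher in CeA bulk nuclei, at 71.2 to 94.3 CPM, and stood at 27.5 to 46.6 CPM in cortex bulk nuclei. Cort, Lhx6 and Penk thus mark the cortical SOM+ sort and the region within SOM+ nuclei, but neither these nor Sst set CeA SOM+ above CeA bulk nuclei. Gad1, of GABAergic neurons, did, with 81.4 to 97.6 CPM in CeA SOM+ and 56.0 to 67.7 CPM in CeA bulk nuclei. Gja1, of astrocytes, was lower, at 4.05 to 7.55 against 9.28 to 18.5 CPM. Aqp4, also of astrocytes, was lower in both its windows (5.26 to 11.7 against 16.4 to 23.2 CPM in the first). Mbp, of oligodendrocytes, overlapped in its first window and was lower in its second (7.55 to 15.8 against 17.4 to 38.7 CPM). Slc32a1, of GABAergic neurons, had 84.4 to 101.5 against 57.1 to 84.4 CPM. Slc17a7, Neurod2, Mag, Cx3cr1 and Cldn5 overlapped between these 2 sorts. The summed GABAergic marker list also overlapped, with 1034 to 1157 CPM in CeA SOM+ and 958 to 1216 CPM in CeA bulk nuclei. The Erbb4 promoter window had 29.4 to 40.0 CPM in KO libraries and 36.4 to 42.2 CPM in WT libraries. A deletion inside the gene in a minority of cells is not read by this window, so it does not check the knockout label.

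The member windows were highest in cortex SOM+ nuclei and lowest in cortex bulk nuclei, with CeA nuclei of both kinds in between. Their median level was 45.3 to 51.4 CPM in the 4 CeA SOM+ libraries and 72.5 to 80.5 CPM in the 4 cortex SOM+ libraries. In bulk nuclei it was 35.6 to 42.4 CPM in the 5 CeA libraries and 19.9 to 35.4 CPM in the 5 cortex libraries. All 10 bulk libraries lay below all 8 SOM+ libraries. In bulk nuclei, fewer nuclei of a type and fewer reads per nucleus of that type cannot be told apart. As a second measure, log2(CPM + 1) was set against the median over windows of the same library. The mean of the members was then taken minus that of the other windows of that library. On this scale the members stood at 0.08 ± 0.10 in CeA SOM+ and 0.86 ± 0.11 in cortex SOM+ nuclei (SD, n = 4 each), and at -0.10 ± 0.08 in CeA bulk and -0.66 ± 0.25 in cortex bulk nuclei (SD, n = 5 each). The cortex bulk libraries spread the most, with -0.31 in KO replicate 1 and -0.93 in KO replicate 3. The cortex libraries of the 2 kinds thus lay on opposite sides of the CeA libraries. These levels are what the rule selected and carry no test.

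**Figure D1:**
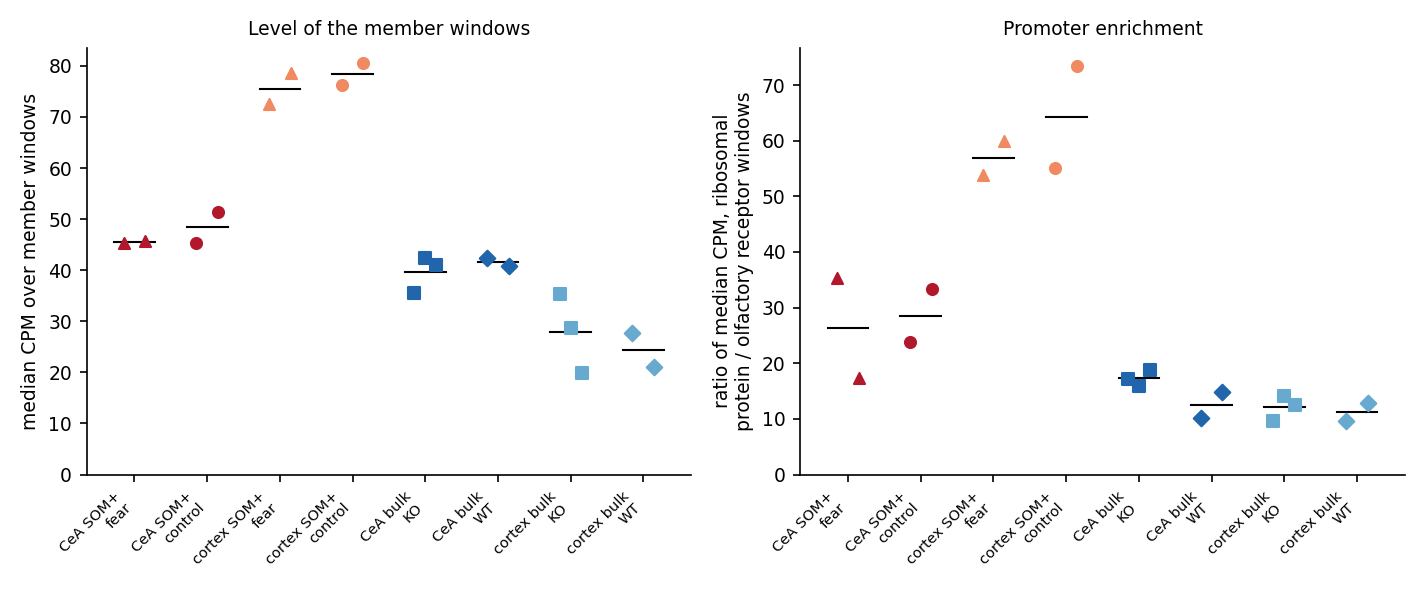
Left, the median CPM of the 768 member windows in each of the 18 libraries; right, the promoter enrichment of each library, the ratio of the median CPM of ribosomal protein windows to that of olfactory receptor windows. Points are libraries and lines are group means; the member level runs from 19.9 CPM in a cortex bulk library to 80.5 CPM in a cortex SOM+ library, and enrichment is also highest in cortex SOM+ nuclei.

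Promoter enrichment of the libraries was also highest in cortex SOM+ nuclei. Like the member level, it was on average higher in CeA bulk (15.4) than in cortex bulk nuclei (11.7). It was measured as a ratio of medians, ribosomal protein windows (open in all cells) divided by olfactory receptor windows (closed in brain). It was 17.4 to 35.3 in CeA SOM+ and 53.8 to 73.5 in cortex SOM+ nuclei, and 10.2 to 18.9 in CeA bulk and 9.57 to 14.0 in cortex bulk nuclei. Single cortex bulk libraries did not keep this order: KO replicate 3, the lowest in member median (19.9 CPM), had an enrichment of 12.5. KO replicate 1, the highest in member median (35.4 CPM), had 9.67. The part of enrichment in the member pattern was not tested.

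Among the members, the median region difference (CeA minus cortex, log2) was -0.66 in SOM+ nuclei and 0.50 in bulk nuclei. In SOM+ nuclei the difference went down to -2.30, in 2810410L24Rik. Of the 4017 windows that met the SOM+ threshold, 19.1% also met the bulk threshold, and of the 2281 that met the bulk threshold, 33.7% also met the SOM+ threshold. In 675 members (87.9%) every CeA SOM+ library lay below every cortex SOM+ library, against 27.1% of all 16429 windows. In 215 members (28%) every CeA bulk library lay above every cortex bulk library, against 7.83% of all windows. In 202 members both held. These counts describe the contrasts on which the members were chosen.

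The members nearest to the SOM+ threshold were Sox15 (-0.40), Sf1 (-0.40) and Fes (-0.40) inside it, and Grn, Rbbp6 and Npepps outside it, also at -0.40 when rounded. Nearest to the bulk threshold were Coq4, Zfand2a and Cdc42bpb inside it, and Rbl1, Ghdc and Rnf113a2 outside it, all at 0.40 when rounded. The boundary is thus a cut through a continuum, and thresholds of 0.3 would have kept 1516 windows and thresholds of 0.5 would have kept 309.

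The direction held in both conditions of each kind of nuclei. Within fear-conditioned libraries alone the median SOM+ difference of the members was -0.67, within control libraries alone -0.65, and all 768 members were below 0 in each. Within Erbb4 KO libraries the median bulk difference was 0.45 and within WT libraries 0.62, and all 768 members were above 0 in each. A difference past 0.4 was kept by 715 members in fear-conditioned, 706 in control, 479 in KO and 690 in WT libraries. Each of these subsets is part of the libraries the rule used.

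**Figure D2:**
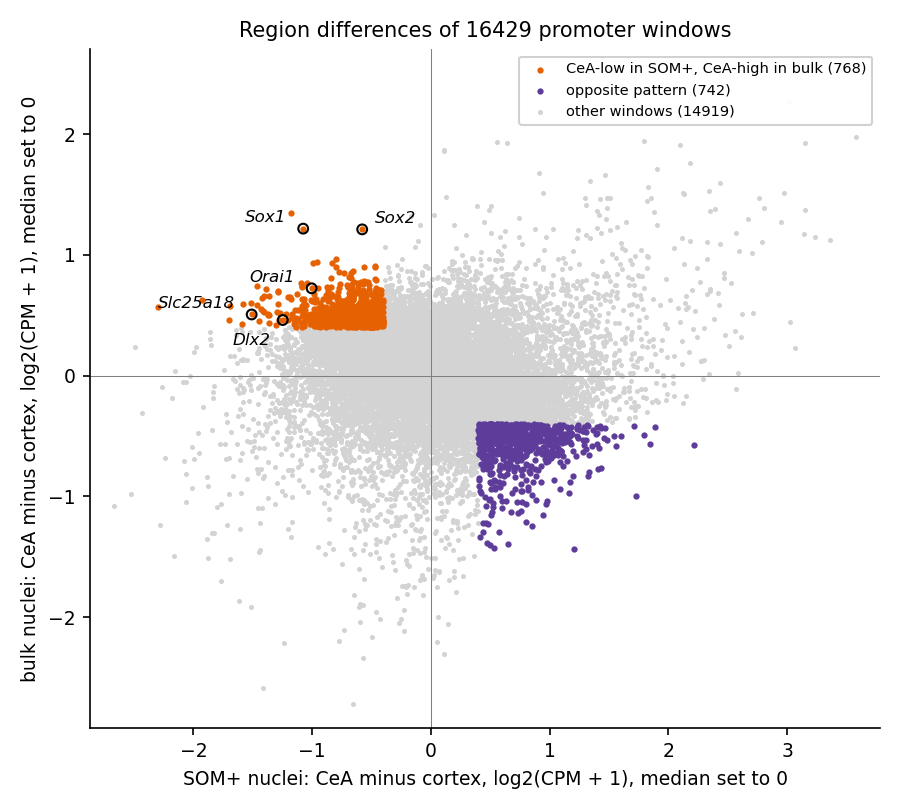
Region difference of 16429 promoter windows in bulk nuclei (vertical, CeA minus cortex, log2(CPM + 1)) against SOM+ nuclei (horizontal); each point is a window, orange the 768 members, purple the 742 windows of the opposite pattern. Sox1 and Sox2 lie near the top of the members in bulk nuclei, at 1.22 and 1.21.

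Sox1 was among the members with the largest differences in both kinds of nuclei at once. It encodes a SOXB1 transcription factor of neural progenitors that is kept on in some GABAergic neurons (mm9 chr8:12394519-12396518). Its window had 25.5 and 24.5 CPM in CeA fear-conditioned and 22.1 and 25.2 CPM in CeA control SOM+ libraries, against 52.3 and 58.0 CPM in cortex fear-conditioned and 55.8 and 43.1 CPM in cortex control SOM+ libraries. In bulk nuclei it had 42.0, 38.4 and 36.7 CPM in CeA KO and 44.0 and 35.6 CPM in CeA WT libraries, against 19.2, 18.5 and 12.3 CPM in cortex KO and 14.8 and 13.6 CPM in cortex WT libraries. No CeA library overlapped the cortex libraries of its kind, and CeA bulk lay above CeA SOM+. The order from high to low was cortex SOM+, CeA bulk, CeA SOM+ and cortex bulk, and the difference was -1.08 in SOM+ and 1.22 in bulk nuclei.

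Sox2, a second SOXB1 factor, is also a member (mm9 chr3:34547917-34549916). It had 38.5 to 52.5 CPM in CeA SOM+ and 61.7 to 75.9 CPM in cortex SOM+ nuclei, and 80.7 to 117.0 CPM in CeA bulk and 34.7 to 45.5 CPM in cortex bulk nuclei. CeA bulk nuclei were the highest of the 4 kinds here, unlike in the member set as a whole. Mir1897, whose window lies upstream of Sox2 on the same chromosome (mm9 chr3:34536386-34538385), was likewise highest on average in CeA bulk nuclei, with differences of -0.65 in SOM+ and 0.78 in bulk nuclei.

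The next members by this measure lie mainly on chromosome 11. Actg1, cytoplasmic gamma actin, averaged 45.9 ± 7.3 CPM in CeA SOM+ and 88.8 ± 3.3 CPM in cortex SOM+ nuclei (SD, n = 4 each), and 52.6 ± 6.0 CPM in CeA bulk and 26.2 ± 6.9 CPM in cortex bulk nuclei (SD, n = 5 each). Its window overlaps that of 0610009L18Rik and shares reads with it. Chmp6, a subunit of the membrane-remodelling ESCRT-III complex, had differences of -0.83 and 0.93, Baiap2, an actin scaffold of the postsynapse, had -0.77 and 0.76, and Gaa, the lysosomal acid alpha-glucosidase, had -1.08 and 0.74 (SOM+ first, then bulk). Rnd2, a small GTPase of migrating neurons, had -0.77 and 0.86, and Rhbdl3, of the rhomboid family, had -0.80 and 0.90. Lgals3bp, a secreted galectin binding protein, had -1.46 and 0.74, and Slc38a10, of an amino acid transporter family, had -1.29 and 0.70. Off chromosome 11, Orai1, the pore of the store-operated calcium channel, had -1.0 and 0.72, and Xpnpep3, an aminopeptidase, had -0.84 and 0.74.

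**Figure D3:**
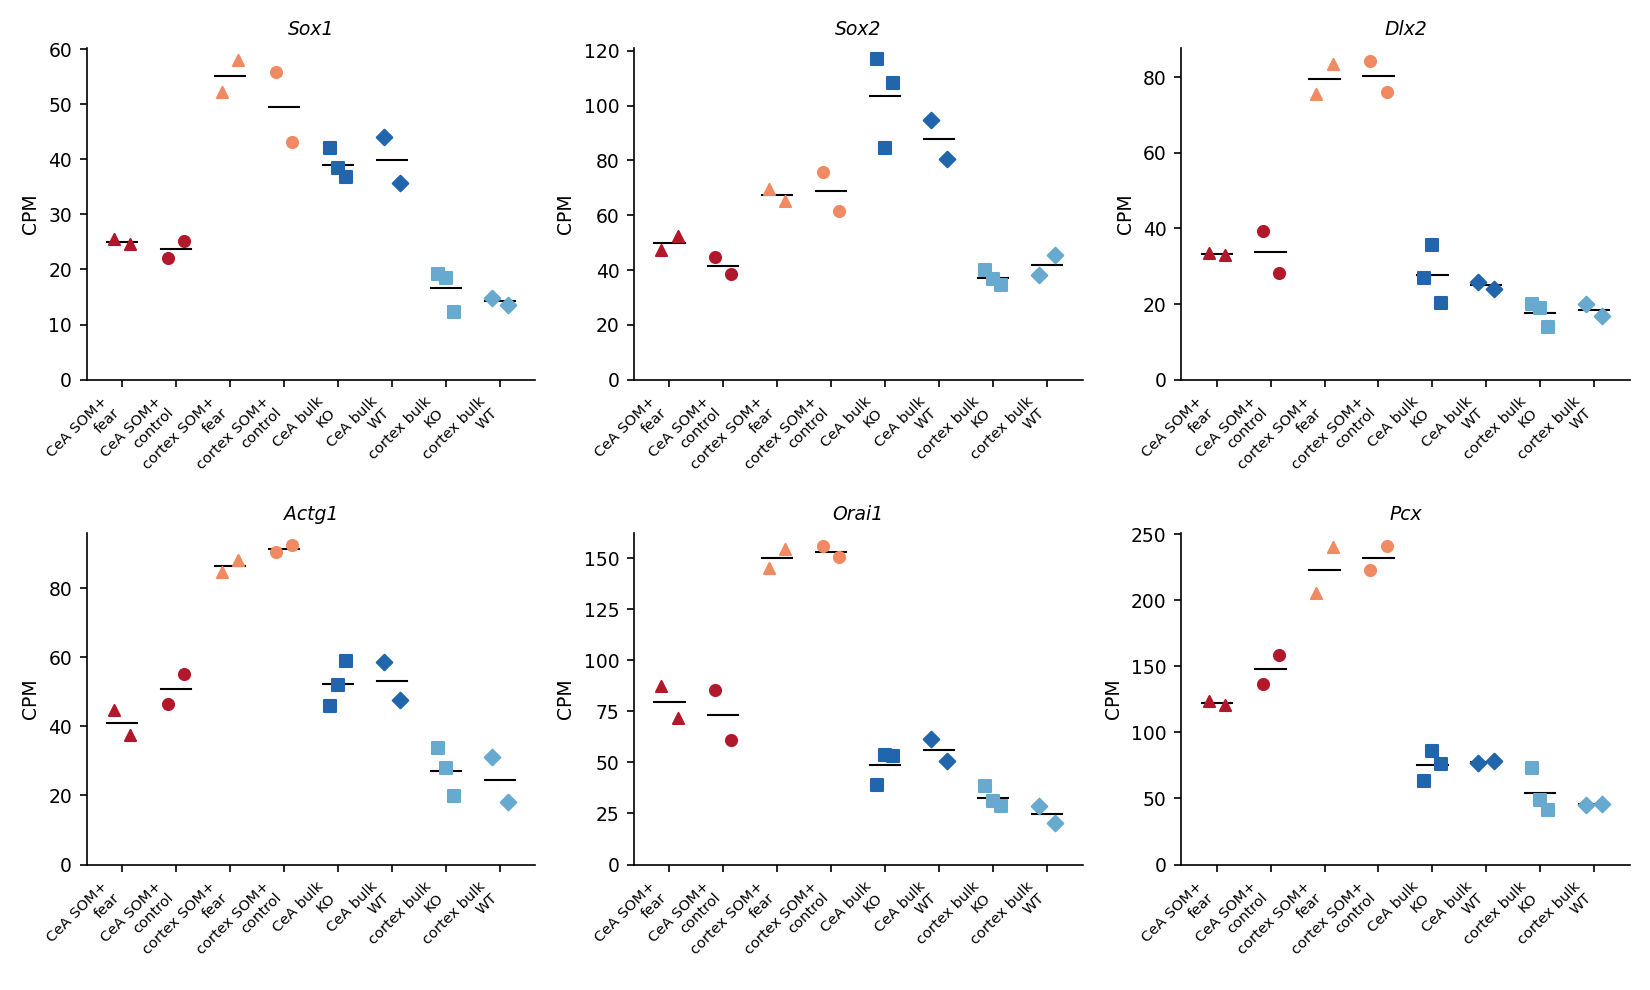
CPM of 6 member windows in every library (points) with group means (lines), SOM+ groups at left and bulk groups at right. In Sox1 and Sox2 the CeA bulk libraries lie above the CeA SOM+ libraries, while in Pcx all SOM+ libraries lie above all bulk libraries.

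The members were unevenly placed in the genome. Chromosome 11 held 210 of them, 16.2% of its 1294 windows, and 27.3% of all members. Chromosomes 15 (87 of 653 windows, 13.3%), 19 (65 of 550, 11.8%) and 5 (90 of 1025, 8.78%) followed, and chromosomes 11, 15, 19, 5, 4 and 7 together held 588 members (76.6%) with 34.7% of all windows. Chromosomes 16, 18 and X held 0 members among 512, 498 and 496 windows.

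Within chromosomes the members lay in blocks. The 20 blocks of 5 Mb with most members held 531 of them (69.1%) and 11.6% of all windows, while 235 of 318 blocks with at least 20 windows held 0. Between 120 and 125 Mb of chromosome 11, 32 of 55 windows were members (58.2%). Actg1 and Slc38a10 lie there, and Baiap2, Chmp6, Gaa and Lgals3bp lie in the block before it, between 115 and 120 Mb, where 46 of 124 windows were members (37.1%). Between 130 and 135 Mb of chromosome 7, which includes Mapk3, 39 of 91 windows were members, and between 100 and 105 Mb of chromosome 11 50 of 119 were. For 577 members (75.1%) another member started within 100 kb, and 194 (25.3%) overlapped another member's window and shared reads with it, so the 768 windows form 668 separate regions and are not independent of each other.

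Members sat where promoters are dense. Counting the other windows within 1 Mb, members had a median of 47 neighbours, all windows 21 and windows of the opposite pattern 9. The share of windows that were members was 0.244% where there were 0 to 7 neighbours and 15.6% where there were 59 to 129. Over the same bins the median region difference of all windows ran from 0.50 to -0.35 in SOM+ nuclei and from -0.26 to 0.33 in bulk nuclei. The gradient differed between the 4 kinds of libraries. Windows with 59 to 129 neighbours, relative to those with 0 to 7, were shifted by 0.33 to 0.69 (log2, relative to the mean of the 18 libraries) in CeA SOM+ and by 0.94 to 1.51 in cortex SOM+ nuclei, and by -0.75 to -0.15 in CeA bulk and -1.43 to -0.42 in cortex bulk nuclei.

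**Figure D4:**
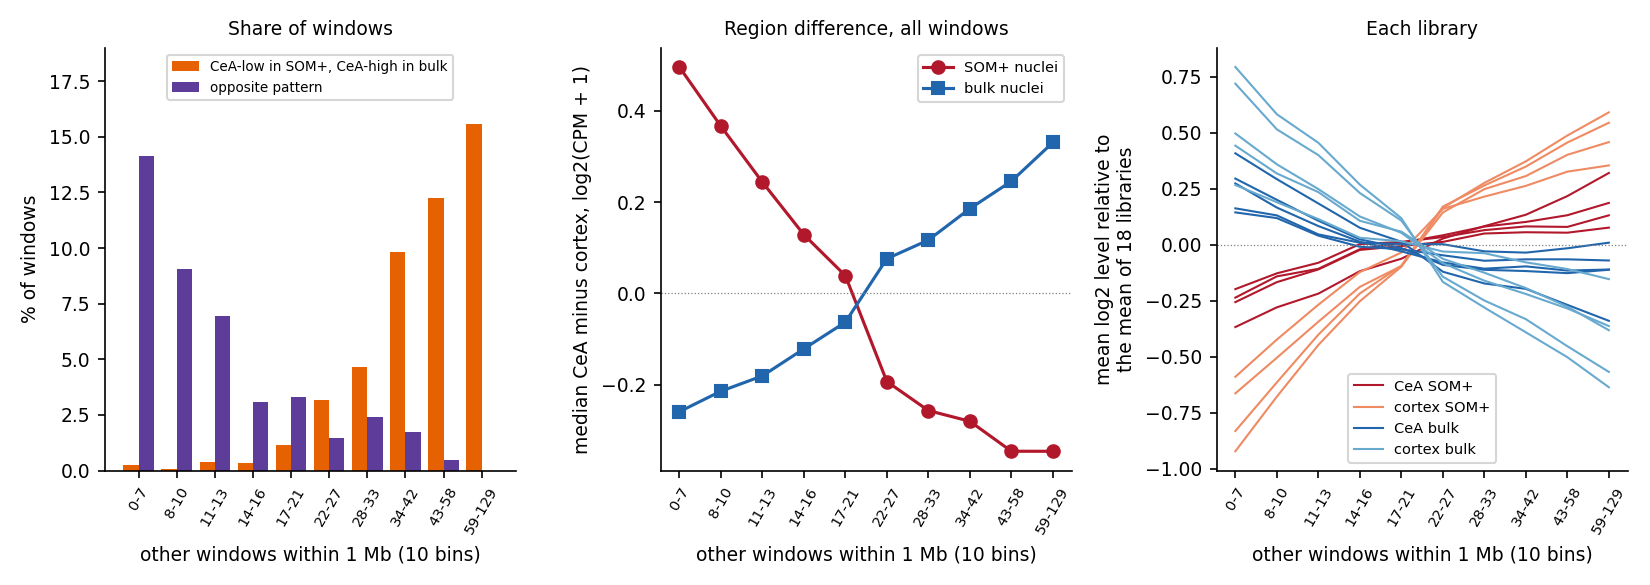
Windows in 10 bins by the number of other windows within 1 Mb. Left, the percent of windows that are members (15.6% in the densest bin) or show the opposite pattern; middle, the median region difference of all windows in SOM+ and bulk nuclei; right, the mean log2 level of the bins in each of the 18 libraries relative to their mean, with cortex SOM+ and cortex bulk libraries at the 2 extremes and CeA libraries between.

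Neighbours of members shifted with them. The 3626 non-member windows within 1 Mb of a member had median differences of -0.38 in SOM+ and 0.25 in bulk nuclei, against 0.18 and -0.12 in the 12035 windows farther away. For 759 of 766 members with at least 5 neighbours (99.1%), the median of the neighbours was below 0 in SOM+ and above 0 in bulk nuclei, against 43.0% of all windows with as many neighbours. These neighbours include other members and windows that share reads with the member, so the 99.1% is partly set by the rule and carries no test.

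When each window was set against the median of its own neighbours, 14 members still met both thresholds. This alternative, like the genes it leaves, was chosen after the values were seen. Among the 14 were Sox1, Sox2, Dlx2, Rpp25, Zfp82, Slc25a18, B3gat2, Ccdc30, Mir1897, Mir6932, Gm5607, Gm12409 and 2610028E06Rik. Dlx2, a homeobox factor that specifies GABAergic neurons, had neighbours at -0.10 and 0.03 and own differences of -1.25 in SOM+ and 0.46 in bulk nuclei. Its window had 33.5 and 32.8 CPM in CeA fear-conditioned and 39.3 and 28.2 CPM in CeA control SOM+ libraries, against 75.5 and 83.4 CPM in cortex fear-conditioned and 84.3 and 76.1 CPM in cortex control SOM+ libraries. In bulk nuclei it had 20.4 to 35.7 CPM in CeA and 13.9 to 20.1 CPM in cortex libraries, so the groups did not overlap in either kind. Sox2 had neighbours at 0.34 and 0.00, thus against its own direction in SOM+ nuclei. Slc25a18, a mitochondrial glutamate carrier, had neighbours at -0.36 and -0.09 and own differences of -1.51 and 0.51. By contrast, Actg1 had neighbours at -1.10 and 0.48, and Lgals3bp at -1.08 and 0.36. Gm5607 lies beside Sox1, and Mir1897 beside Sox2, so the 14 windows include 2 neighbouring pairs.

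Markers of cell types were members in shares of 0% to 10.5% by list, beside 4.67% of all windows. Of 19 GABAergic neuron windows 2 were members, Dlx2 among them, and of 27 windows of medial ganglionic eminence and somatostatin interneuron genes 2 were, Elfn1, a synaptic organiser of somatostatin interneurons, and Pnoc, the nociceptin precursor. Pnoc had 13.0 to 21.5 CPM in CeA SOM+ and 22.4 to 28.4 CPM in cortex SOM+ nuclei, and 11.6 to 16.7 CPM in CeA bulk and 5.80 to 12.0 CPM in cortex bulk nuclei. Of 37 CeA and striatal neuron windows 2 were members, Drd1, the D1 dopamine receptor, and Pde10a, the striatal phosphodiesterase. Drd1 had differences of -0.54 and 0.40, and Pde10a of -0.41 and 0.61, against list medians of 0.74 in SOM+ and 0.26 in bulk nuclei. Of 33 glutamatergic and pallial neuron windows 2 were members, Baiap2 and Cux1, a factor of upper cortical layers, and of 18 astrocyte windows 1 was, Atp1b2, a sodium pump subunit. Among other interneuron (17), oligodendrocyte (18), microglia (5) and vascular (19) windows 0 were members.

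The remaining lists are given beside the 4.67% of all windows that were members. Of 54 chromatin modifier windows 4 were members: Ep300, a histone acetyltransferase (-1.04 and 0.50), Hdac5, a histone deacetylase (-0.55 and 0.61), Ezh1, a histone methyltransferase (-0.52 and 0.48), and Kat2a, a histone acetyltransferase (-0.51 and 0.40). Of 50 windows of ErbB and neuregulin signalling, the pathway of Erbb4, 5 were members: the adaptor Grb2 with 2 windows, and the kinases Mapk3 (-0.71 and 0.63) and Map2k2 (-0.53 and 0.48) and the factor Stat5b (-1.14 and 0.47). The list medians there were -0.15 and 0.10, with a median of 27.5 neighbours. Of 52 synaptic plasticity windows 3 were members, among them the presynaptic adhesion gene Nrxn2 and the vesicle gene Syn2. Members also included 2 of 41 axon guidance windows (Efna2 and Efnb3), 1 of 49 potassium channel windows (Kcnip2), 1 of 42 immediate early windows (Maff), 5 of 78 ribosomal protein, 2 of 59 oxidative phosphorylation, 15 of 332 Zfp zinc finger and 18 of 512 microRNA windows.

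Some dense clusters held no member. The 49 clustered protocadherin windows had a median of 78 neighbours and held 0 members, with median differences of 0.63 in SOM+ and 0.54 in bulk nuclei. The 60 clustered histone windows had a median of 36 neighbours and held 0 members, while 28 of them showed the opposite pattern.

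The promoters of members were somewhat richer in GC than those of all windows. Of 698 protein-coding members, 565 (80.9%) had a RefSeq promoter (GRCm38.p6), with a median GC content of 63.0% and a median CpG observed-to-expected ratio of 0.80, against 60.7% and 0.73 over all protein-coding windows of the set (82.4% matched). Median promoter GC did not follow density: it was between 60.0% and 61.7% in the 10 bins. Of 16 motifs searched on both strands in genes with a single promoter, the YY1 motif was present in 23 of 442 member genes (5.20%) and in 191 of 8822 genes in all (2.17%), and in 2.98% of non-member genes with at least 34 neighbours. The GC box was present in 28.3% of member genes and 22.7% of all genes, the NFY box CCAAT in 39.4% and 39.1%, the ETS motif CCGGAAG in 19.9% and 17.6%, and the AP-1 motif TGANTCA in 2.04% and 4.34%. The other motifs were NRF1, the CRE TGACGTCA and its looser form TGACGTNA, which overlap, the E-box CACGTG and the neurogenic E-box CAGCTG, the homeodomain motif TAATTA, the MEF2 core TATTTATA, the SOX core ACAATG, the TATA box TATAAA, RFX and the REST core TTCAGCACC, and their shares in member genes differed from those in all genes by less than 2 percentage points. These shares are descriptions without a test. The YY1 motif is shown in capitals in the promoters of Wbscr16 and Bsdc1, as examples of where it lay close to the start site.
Wbscr16 (chr5:134176718-134177017, - strand): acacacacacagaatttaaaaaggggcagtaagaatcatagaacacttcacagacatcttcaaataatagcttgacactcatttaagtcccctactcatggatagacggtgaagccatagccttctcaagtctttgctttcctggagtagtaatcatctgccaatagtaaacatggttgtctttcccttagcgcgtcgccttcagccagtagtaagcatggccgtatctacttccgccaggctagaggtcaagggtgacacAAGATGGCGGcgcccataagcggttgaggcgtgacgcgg
Bsdc1 (chr4:129461429-129461728, + strand): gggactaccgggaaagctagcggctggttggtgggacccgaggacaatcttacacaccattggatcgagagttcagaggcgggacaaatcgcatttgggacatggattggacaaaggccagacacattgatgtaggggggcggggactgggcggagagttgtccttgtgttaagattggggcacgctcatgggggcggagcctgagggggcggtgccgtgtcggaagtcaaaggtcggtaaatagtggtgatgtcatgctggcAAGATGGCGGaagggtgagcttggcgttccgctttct

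The rule compared regions within each kind of nuclei and not the kinds themselves. SOM+ control was therefore compared with bulk WT, averaged over both regions with equal weight, in edgeR's quasi-likelihood test over all 18 libraries with sex as a term. Of the 768 members, 726 (94.5%) were higher in SOM+ nuclei on this average at an adjusted p under 0.05 and 0 were lower. Of the 25246 windows tested, 61.1% passed, 30.6% higher and 30.6% lower. By the rule, the members' difference between the kinds is larger in the cortex than in the CeA. Their median level was 45.4 and 51.4 CPM in CeA control SOM+ and 42.3 and 40.9 CPM in CeA WT bulk libraries. In the cortex it was 76.3 and 80.5 CPM against 27.7 and 21.0 CPM. The difference within a region carries no test. With total-count scaling 676 members were higher and 2 lower, beside 6051 higher and 9472 lower windows in all. The median log2 difference of the members was 1.10, with quartiles of 0.85 and 1.33 and a median standard error of 0.16, against a median of 0.26 over the 16429 windows of the set, 44.8% of which were higher. In 323 members (42.1%) every SOM+ control library lay above every bulk WT library in CPM, against 22.9% of the 16429 windows.

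The difference went with density here too. Non-members with at least 34 neighbours were higher in 3067 of 4255 windows (72.1%), with a median of 0.78. Of the 742 windows of the opposite pattern, 16 were higher and 590 lower. When each library was given an offset for each density bin, an alternative added after the data were seen, 562 members were higher and 4 lower, with a median of 0.59. Marker windows of other cells were often lower in SOM+ nuclei: 20 of 30 glutamatergic and pallial, 12 of 20 astrocyte, 15 of 25 oligodendrocyte, 8 of 22 microglia and 16 of 29 vascular genes passed in that direction, while 6, 5, 0, 1 and 3 of them were higher, beside 30.6% of all windows in each direction. Lists that cover the SOM+ cells were mixed: 7 of 23 medial ganglionic eminence and somatostatin genes were higher and 9 lower. Of 31 CeA and striatal genes 4 were higher and 17 lower, and of 19 GABAergic genes 12 were higher and 4 lower. Of 20 genes of other interneuron classes 3 were higher and 10 lower. In summed level, the glutamatergic list had 1078 to 1287 CPM in SOM+ control and 1441 to 1889 CPM in bulk WT libraries. The astrocyte list had 356 to 401 against 544 to 617 CPM, and the oligodendrocyte list 243 to 299 against 523 to 608 CPM. The microglia list had 149 to 194 against 198 to 335 CPM, and the vascular list 252 to 303 against 384 to 496 CPM. None of these marker windows was at 0 in any library. The part of cell composition and of promoter enrichment in the member difference was not tested.

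**Figure D5:**
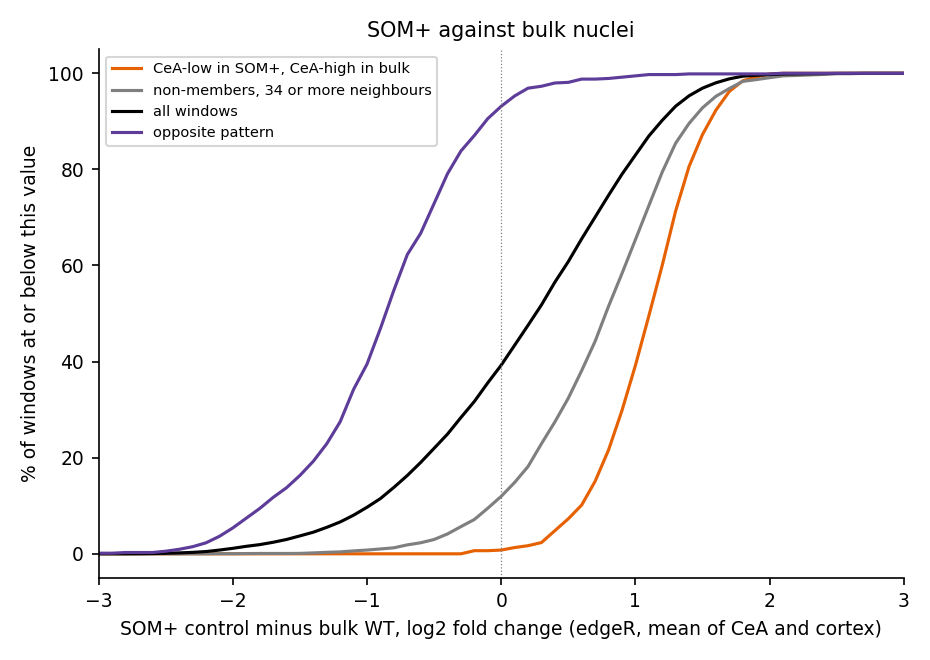
Cumulative share of windows (vertical, percent) by the log2 difference of SOM+ control minus bulk WT nuclei (horizontal, edgeR, mean of both regions). The member curve lies farthest to the right, with a median of 1.10, next to non-members in dense regions with a median of 0.78.

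Among the members with the smallest p, Fchsd2, an F-BAR protein of membrane traffic, averaged 201.0 ± 39.4 CPM in SOM+ control and 69.8 ± 27.8 CPM in bulk WT libraries (SD, n = 4 each, 2 per region), a log2 difference of 1.79 (SE 0.15, edgeR adjusted p = 2.7e-12). Pcx, pyruvate carboxylase, had 137 and 159 CPM in CeA control and 223 and 241 CPM in cortex control SOM+ libraries, against 76.5 and 78.5 CPM in CeA WT and 45 and 46.1 CPM in cortex WT bulk libraries. All SOM+ libraries of Pcx lay above all bulk libraries, and its difference was 1.84 (SE 0.15, edgeR adjusted p = 3.05e-12). Rpp25, a subunit of ribonuclease P and 1 of the 14 members that stood apart from their neighbours, rose by 1.74 (SE 0.14, edgeR adjusted p = 3e-12). Telo2, Gosr1, a Golgi SNARE, and Hn1l rose by 1.93, 1.92 and 1.80. Of the members named above, Orai1 rose by 1.71, Dlx2 by 1.48, Actg1 by 1.12 and Sox1 by 0.71. Each had an edgeR adjusted p of 0.00019 or lower. These values are means of both regions. In the cortex each of these genes was higher in SOM+ control than in bulk WT libraries. In the CeA, Sox1 was lower in SOM+ control (22.1 and 25.2 CPM) than in bulk WT libraries (44.0 and 35.6 CPM). Actg1 overlapped there (46.6 and 55.1 against 58.6 and 47.6 CPM), as did Orai1, while Dlx2 was higher (39.3 and 28.2 against 25.9 and 24.0 CPM).

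Not called were 42 members. Sox2 averaged 55.2 ± 16.9 CPM in SOM+ control and 64.8 ± 27.2 CPM in bulk WT libraries (SD, n = 4 each), a difference of 0.01 (SE 0.14), which was -0.18 under total-count scaling and -0.34 under cyclic loess. This mean joins opposite differences in the 2 regions. In the CeA, Sox2 had 44.8 and 38.5 CPM in SOM+ control against 94.7 and 80.7 CPM in bulk WT libraries. In the cortex it had 75.9 and 61.7 against 38.4 and 45.5 CPM. Drd1 had a difference of 0.28 (SE 0.19, edgeR adjusted p = 0.189), which was -0.01 under cyclic loess. Efnb3 had 0.45 (SE 0.20, edgeR adjusted p = 0.0558), which was -0.26 with the density offset. Further members that were not called, named after their values were seen, were Oxtr, the oxytocin receptor, at -0.21 and Gata4, a transcription factor, at -0.30.

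Fear conditioning called no member. In edgeR's quasi-likelihood test over the 8 SOM+ libraries, 0 of 768 members and 0 of 25157 windows (0%) passed an adjusted p of 0.05 for fear-conditioned against control in the CeA, in the cortex, averaged over regions, or in the interaction of fear with region, and DESeq2 called 0 members as well. At an unadjusted p under 0.05 there were 14 members in the CeA, 1 in the cortex, 11 averaged over regions and 2 in the interaction, beside 598, 288, 530 and 371 of all windows. The median log2 difference of all windows tested, fear-conditioned minus control, was 0.0078 in the CeA and -0.0005 in the cortex. That of the members was -0.11 in the CeA and -0.09 in the cortex, and -0.06 and -0.04 with the density offset. Without the offset, 521 and 637 of the 768 members were below 0, and the median standard error of a single member was 0.23 and 0.21. Single libraries decided these medians too: the CeA median was 0.0009 without control replicate 2, -0.02 without fear-conditioned replicate 2, and -0.23 without control replicate 1 or fear-conditioned replicate 1, and the cortex median was -0.01 without fear-conditioned replicate 1, -0.02 without control replicate 2, -0.18 without control replicate 1 and -0.19 without fear-conditioned replicate 2. The members' mean level relative to the other windows overlapped between the groups. In order of replicate, male then female, it was 0.05 and 0.02 in CeA fear-conditioned against 0.03 and 0.23 in CeA control libraries, and 0.72 and 0.91 in cortex fear-conditioned against 0.83 and 0.97 in cortex control libraries. Within a sex, cortex fear-conditioned was thus below cortex control in both sexes, and CeA fear-conditioned below CeA control in females only. The SOM+ fit had no sex term.

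The member with the smallest p for fear in the CeA was Ltbp3, which binds latent TGF-beta. It had 7.22 and 7.17 CPM in CeA fear-conditioned and 11.4 and 14.7 CPM in CeA control libraries, a log2 difference of -0.82 (SE 0.31, unadjusted p = 0.00827 and adjusted p = 1 in edgeR). In the cortex it was Rab34, a small GTPase of membrane traffic, with 30.0 and 36.3 CPM in fear-conditioned and 50.9 and 44.7 CPM in control libraries, a difference of -0.55 (SE 0.20, unadjusted p = 0.00712 and adjusted p = 1 in edgeR). In the interaction it was Pef1, a calcium-binding protein, at -0.66 (SE 0.31, unadjusted p = 0.0313 in edgeR). None of these differences passed the test over all windows.

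Erbb4 KO called no member either. Over the 10 bulk libraries with sex as a term, 0 of 768 members and 0 of 25196 windows (0%) passed for KO against WT in the CeA, in the cortex, averaged over regions, or in the interaction with region, and DESeq2 called 0 members. At an unadjusted p under 0.05 there were 21, 31, 43 and 12 members in these 4 comparisons, beside 745, 823, 872 and 590 of all windows. The median log2 difference of all windows tested, KO minus WT, was 0.02 in the CeA and 0.02 in the cortex. That of the members was 0.09 in the CeA and 0.20 in the cortex, and 0.12 and 0.03 with the density offset. Without the offset, 494 and 645 of the 768 members were above 0, with a median standard error of 0.25 and 0.26. Single libraries decided these medians: the CeA median was 0.0048 without WT replicate 1 and 0.19 without WT replicate 2, and the cortex median was 0.06 without KO replicate 1, 0.28 without KO replicate 3 and turned to -0.04 without WT replicate 2. Relative to the other windows, the members stood at -0.31, -0.57 and -0.93 in cortex KO against -0.61 and -0.88 in cortex WT libraries, so the groups overlapped. Without cortex KO replicate 3, the lowest of these, 11 members and 985 of 25181 windows were called in the cortex, the 11 members all higher in KO, where 105 windows in all were higher and 880 lower.

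Smg6, an endonuclease of nonsense-mediated decay, had the smallest p among members for KO in the CeA, with 61.4, 62.0 and 71.7 CPM in KO and 53.7 and 41.4 CPM in WT libraries, a log2 difference of 0.68 (SE 0.22, unadjusted p = 0.0057 and adjusted p = 0.999 in edgeR). In the cortex it was Lgals3bp, with 21.5, 17.0 and 15.6 CPM in KO and 16.8 and 7.19 CPM in WT libraries, a difference of 0.91 (SE 0.30, unadjusted p = 0.00605 and adjusted p = 0.945 in edgeR). In the interaction it was Tcirg1, a subunit of the vacuolar proton pump, at -1.06 (SE 0.35, unadjusted p = 0.00678 in edgeR).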

How the data were processed

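ATAC-seq of sorted mouse brain nuclei gave 18 libraries in 8 groups. The deposited values were counts: whole-number reads per promoter window in build mm9, not normalized by the authors, with 1 column per library. Reads were processed with Trimmomatic 0.32, Bowtie2, bcl2fastq 2.16.0.10, MACS2 and Picard 1.88, as named in the submitters' processing notes without their roles. How reads were counted, shifted for the Tn5 cut and freed of duplicates is not given in the sources used here, and totals are promoter counts, not sequencing depth. Of 26728 entries, 663 repeated another's window and were left out, leaving 26065.

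CPM, the region differences (pseudocount 1, medians of 0.01 in SOM+ and 0.07 in bulk nuclei subtracted) and neighbour counts were computed from the counts with Python 3.11.15. The members and all gene lists were chosen with earlier results of these data known, and contrasts used by the rule carry no test. Tests used edgeR 4.0.16 (quasi-likelihood, TMM, filterByExpr by group, Benjamini-Hochberg adjustment over all windows) in 3 fits, over the 8 SOM+, 10 bulk and 18 libraries, with sex as a term in the last 2. All 768 members passed the filter. The scripts were tested on simulated data. DESeq2 1.42.0 and limma 3.58.1 served as alternatives, beside other scalings, filters, a replicate block and leaving out each library of the groups compared. TMM set the median of all windows to -0.07 in SOM+ against bulk nuclei, and total-count scaling to -0.27. Genes were named by a rule: the 12 members largest in both differences and not overlapping in either, members on the lists (up to 4 each), the 6 with the smallest p in SOM+ against bulk nuclei, and the smallest-p member where 0 were called; predicted and small RNA genes were left out unless stated. Coordinates are 1-based. Promoter sequences are from RefSeq (GRCm38.p6); chromosome 18 was not used, and Chmp6 and Rnd2 are named without a sequence. Some members that the rule names are not reported here.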

Additional observations from a re-analysis of the deposited data

How the results depend on the processing

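The number of members was 768 as reported. It was 1516 with thresholds of 0.3, 309 with thresholds of 0.5, 1234 with WT libraries only for bulk nuclei, 224 when differences were centred within density bins and 30 when they were centred on the windows within 1 Mb, the last 2 added after the data were seen. Leaving out each library in turn gave 514 (without cortex KO replicate 3) to 1089 (without cortex KO replicate 1). The other settings tried (pseudocount, CPM minimum, TMM or cyclic loess scaling, repeated, wider or merged windows, and other single conditions) gave 520 to 937. Members called for SOM+ against bulk nuclei were 726, and 704 to 723 without each of the 8 SOM+ control and bulk WT libraries in turn (fear and KO libraries were not left out here), 678 with total-count scaling, 684 with limma and cyclic loess, 726 with DESeq2 and 566 with the density offset. Fear and KO comparisons called 0 members under every setting run, except KO in the cortex, with 0 to 11 when each library was left out and 11 without cortex KO replicate 3.

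Deviations of same-numbered libraries of the 2 regions and conditions correlated at 0.09 to 0.49 in SOM+ nuclei, and those of different-numbered ones at -0.49 to -0.09. With 2 libraries per group the second range mirrors the first. In SOM+ nuclei same-numbered libraries thus shared a deviation. In bulk nuclei the ranges were -0.41 to 0.51 and -0.59 to 0.59. The main fits did not pair libraries by number, and a replicate block was run as an alternative. With a replicate block there were 980 members, 724 called for SOM+ against bulk nuclei, and 0 called for fear or KO. In SOM+ nuclei the number is also the labelled sex, and with the block the members' median for fear was -0.10 in the CeA and -0.09 in the cortex.

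Of 856 alternatives over 58 single-gene results, 813 kept direction and call, 19 lost the call, 9 gained it and 15 changed sign. All changes of sign were in SOM+ against bulk nuclei. With the density offset Atp1b2 was at -0.068, Efna2 at -0.12, Efnb3 at -0.26, Kat2a at -0.038 and B3gat2 at 0.26. With cyclic loess Drd1 was at -0.01, Mir1897 at -0.25 and Sox2 at -0.34, and with total-count scaling Mir1897 was at -0.092 and Sox2 at -0.18. Without each of the same 8 libraries in turn Mir1897 ranged from -0.0905 (without cortex WT replicate 1) to 0.33 and Sox2 from -0.0809 (without CeA WT replicate 2) to 0.11. The cause of these changes was not tested. With 2 or 3 libraries per group, the median standard error of a member in the fear and KO comparisons within a region was 0.21 to 0.26 (log2), so small differences were not detectable.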
